A study of Sus scrofa with 5 samples.

Results

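RORB/LRRC7 cells are the cells of day 6 porcine blastoids that carry *GATA3* RNA and have the highest summed level of *RORB* and *LRRC7*. Blastoids are blastocyst-like structures, here grown from porcine embryonic stem cells (pESCs) in iBlastoid medium, and the cells were profiled in 2 single-cell RNA sequencing (scRNA-seq) libraries of 1 condition. A barcode was taken as a cell when it held at least 11223 unique molecular identifiers (UMIs) in library 1, or reached a somewhat lower minimum in library 2, which left 7369 and 8175 cells. A cell passed the gate when it had at least 1 UMI of *GATA3*, which 6113 and 6525 cells had, most of each library. It also had to stay below limits on *PAX6* (2 UMIs), *TP63* (4), *POU5F1* (5), *GABRP* (10), *ISG15* (10) and *CRABP1* (15). Of the gated cells, 2088 in library 1 and 2331 in library 2, the 600 with the highest summed CPM (UMIs scaled to a fixed total per cell) of *RORB* and *LRRC7* were taken from each library. These 1200 cells were 8.14% and 7.34% of the cells of their library, and 1200 of 15544 cells in all. The cells were therefore chosen by measured values of the 9 genes of this rule, whose levels are given below as a description with no test. Both libraries carry the same labels for cell line, age and medium, and nothing says that they came from separate cultures, so the p-values below measure only the spread between these 2 libraries.

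*RORB* is an orphan nuclear receptor of the retinoid-related family, best known from retina, brain cortex and the circadian system. *LRRC7*, also called densin, is a scaffold protein of the LAP family that was first described at the postsynaptic side of neuronal junctions. *GATA3* is a transcription factor of trophectoderm (TE), the outer epithelium of the blastocyst, and the study used it with *GATA2* to assign TE-like cells (TLCs). *GATA3* is also made in other epithelia, such as amnion and surface ectoderm, so the cells are called here by the genes that chose them and given no cell type name.

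For comparison, 5 other sets of cells were formed. Other gated cells were those that passed the same gate outside the top 600 (1488 and 1731 cells). The GABRP class held 646 and 626 cells, the PAX6 class 483 and 593, and the TP63 class 869 and 724. The cells of each had *GATA3* and failed only the limit on the gene the class is named after. Genes that go with *GABRP*, *PAX6* or *TP63* therefore differ from the class of that name by the choice of cells. The remaining 3283 and 3901 cells made up the last set, and the 5 sets together were the 14344 cells that are not RORB/LRRC7 cells. UMIs were summed over the cells of a set within a library, and a level in CPM is the UMIs of a gene scaled to the total of that sum. The libraries held a median of 29728 and 27588 UMIs per cell, and 9 cell barcodes occurred in both.

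*RORB* stood at 219 CPM in the RORB/LRRC7 cells of library 1 and at 235 CPM in those of library 2, against 26.8 and 27.9 CPM in other gated cells. In the PAX6 class it was at 66.1 and 67.9 CPM, and in the TP63 class at 60.2 and 73.8 CPM. The remaining cells held 39.6 and 35.6 CPM, and the GABRP class was lowest at 16.7 and 20.0 CPM. *LRRC7* stood at 351 and 369 CPM in the RORB/LRRC7 cells, 77.7 and 88.6 CPM in other gated cells, 133 and 131 CPM in the PAX6 class, 145 and 176 CPM in the TP63 class, 89.1 and 98.1 CPM in the remaining cells and 44.5 and 50.2 CPM in the GABRP class. For both genes the PAX6 and TP63 classes came next after the RORB/LRRC7 cells, followed by the remaining cells, other gated cells and the GABRP class. Droplets without a cell, taken as barcodes of 10 to 100 UMIs, held *RORB* at 30.5 and 19.2 CPM and *LRRC7* at 61.0 and 48.6 CPM, so other gated cells and the GABRP class were close to the level of free RNA for *RORB*. In this annotation *RORB* spans 202.8 kb of chromosome 1 (227573972 to 227776806) and *LRRC7* 538.3 kb of chromosome 6 (142735676 to 143273992; Sscrofa11.1).

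**Figure D1:**
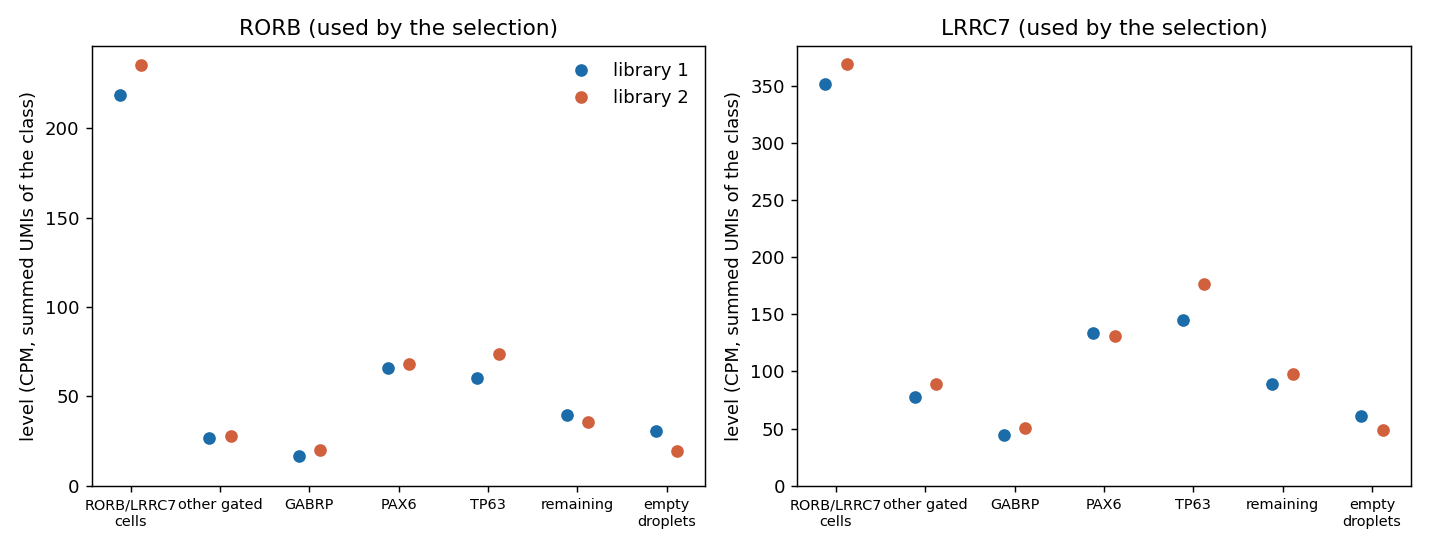
Level of *RORB* (left) and *LRRC7* (right) in CPM on the y axis, in 6 sets of cells and in empty droplets on the x axis, with 1 point per library. RORB/LRRC7 cells were chosen on these genes, at 219 and 235 CPM of *RORB*; the PAX6 and TP63 classes come next, and the GABRP class lies near the level of empty droplets.

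The summed CPM of both genes in a cell reached 2785 in library 1 and 2069 in library 2, with medians of 473 and 518 over the 600 chosen cells. The ranking passed through a continuous range at its end, since the last cell inside had 293.9 CPM (23 UMIs) and the first outside 293.7 CPM (9 UMIs) in library 1, and 341.5 CPM (14 UMIs) and 341.3 CPM (8 UMIs) in library 2. At the low end a chosen cell had 4 UMIs of both genes together, and 467 and 541 gated cells had none. Cells outside the gate also reached this level, 706 in library 1 and 616 in library 2, so high *RORB* and *LRRC7* were not particular to the gate.

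Both transcripts were seen in 75% of the RORB/LRRC7 cells of either library. A further 22.7% and 23.5% had *LRRC7* alone, and 2.33% and 1.5% had *RORB* alone. Cells with both were deeper (median 32464 and 30560.5 UMIs) than cells with *LRRC7* alone (28538 and 24876 UMIs). After every cell was thinned to the UMI minimum of library 2, *RORB* was seen in 59.5% and 60.8% of the RORB/LRRC7 cells against 18.5% and 15.9% of other gated cells, and *LRRC7* in 91.7% and 93.2% against 40.0% and 44.7%. Across all gated cells of each library, the CPM of the 2 genes had a Spearman correlation of 0.323 and 0.318. The cells differ in depth, and this is a description of sparse counts with no test.

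The same gated cells were also ranked by 1 gene, which leaves the other gene out of the ranking. Both genes were still set as a pair with earlier results of these data known. The 600 cells highest in *RORB* alone held *LRRC7* at 219 and 228 CPM against 139 and 147 CPM in the other gated cells. The 600 highest in *LRRC7* alone held *RORB* at 134 and 126 CPM against 66.1 and 74.8 CPM. Each gene was higher in cells chosen on the other in both libraries, by less than the folds that the summed ranking fixes. Given how the pair was set, this is a description with no test. The share of all genes higher under the same rankings is not given here. Of the 600 RORB/LRRC7 cells, 375 in either library were also among the highest by *RORB* alone, and 474 and 447 among the highest by *LRRC7* alone.

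The nearest comparison is with the other gated cells, which met the same limits on all 7 gate genes. At an adjusted p under 0.05 and a change of at least 2-fold (edgeR quasi-likelihood test, Benjamini-Hochberg adjustment over 17143 genes), 53 genes were higher in RORB/LRRC7 cells, 0.309% of those tested, and 666 were lower, 3.88%. At any fold, 1709 genes were higher (9.97%) and 2069 lower (12.1%), so most differences were small. With the library as a block in the same edgeR fit, 2690 genes were higher at any fold (15.7%) and 3186 lower (18.6%). Of the 53 genes, 20 carry only a locus identifier, and 9 of the named ones reached 20 CPM: *SGCZ*, *GRIN2B*, *SYT4*, *PADI2*, *FRMPD4*, *DRP2*, *GLDC*, *TACR1* and *GALNT3*. They include a glutamate receptor subunit, a vesicle protein, members of the dystrophin complex and enzymes of glycine and sugar metabolism.

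*SGCZ*, zeta-sarcoglycan of the dystrophin-associated complex, stood at 38.3 and 31.0 CPM in RORB/LRRC7 cells and at 9.6 and 10.8 CPM in other gated cells. Its log2 fold change was 1.71 ± 0.16 (SE from the edgeR fit of 12 sums, n = 2 libraries, edgeR adjusted p = 4.7e-05), the highest of the 9 genes. It was 1.95 in library 1 and 1.46 in library 2. *GRIN2B*, the GluN2B subunit of the NMDA-type glutamate receptor, stood at 60.0 and 47.9 CPM against 19.3 and 16.1 CPM (log2 fold change 1.56 ± 0.13, edgeR adjusted p = 2.3e-05). It was at 4.1 and 6.14 CPM in the PAX6 class, no higher than the 6.1 and 9.38 CPM of empty droplets. *SYT4*, a synaptotagmin of secretory vesicles, stood at 37.4 and 34.8 CPM against 11.7 and 14.3 CPM (log2 fold change 1.42 ± 0.13, edgeR adjusted p = 4.4e-05). *PADI2*, which converts arginine to citrulline in proteins, was at 48.8 and 49.5 CPM against 17.7 and 19.6 CPM (1.35 ± 0.11 on the log2 scale, edgeR adjusted p = 2.7e-05). *SGCZ* spans 1022 kb of chromosome 17 (2028093 to 3049613) and *GRIN2B* 471 kb of chromosome 5 (58477862 to 58948735), *SYT4* 10.0 kb of chromosome 6 (127382248 to 127392258) and *PADI2* 59.5 kb of the same chromosome (75696476 to 75755977). For all 4 genes both libraries of RORB/LRRC7 cells lay above both libraries of every other set, empty droplets included. The 4 genes were named for lying above other gated cells, so that part was fixed by their choice. How many of all genes had this order is not given here.

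*FRMPD4*, a postsynaptic scaffold protein, was at 58.1 and 56.6 CPM in RORB/LRRC7 cells, 25.0 and 24.4 CPM in other gated cells and 39.4 and 39.1 CPM in the PAX6 class. Its log2 fold change was 1.17 in library 1 and 1.16 in library 2. *DRP2*, a relative of dystrophin, was at 38.4 and 37.7 CPM against 16.5 and 18.8 CPM in other gated cells (log2 fold change 1.17 and 0.95 in the libraries). *GLDC*, the glycine decarboxylase of the mitochondrial glycine cleavage system, was at 94.9 and 106 CPM against 43.9 and 50.8 CPM, and was lowest in the GABRP class at 13.9 and 15.8 CPM. *GALNT3*, which starts mucin-type O-glycosylation, was at 282 and 270 CPM against 131 and 134 CPM, and its log2 fold change of 1.00 ± 0.05 (edgeR adjusted p = 1.5e-06) sits on the 2-fold threshold. *TACR1*, the receptor of substance P, was at 43.0 and 36.7 CPM against 20.1 and 18.0 CPM, but the TP63 class held 44.7 and 43.4 CPM (log2 fold change -0.19 against that class, edgeR adjusted p = 0.38). In library 2 alone *DRP2*, *TACR1* and *GALNT3* were below 2-fold, at log2 values of 0.95, 0.97 and 0.95. RORB/LRRC7 cells were the highest of the 6 sets in both libraries for 8 of the 9 genes, *TACR1* being the exception. All 9 genes were named for lying above other gated cells, so that part of the order was built in. The share of all genes with this order is not given here.

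**Figure D2:**
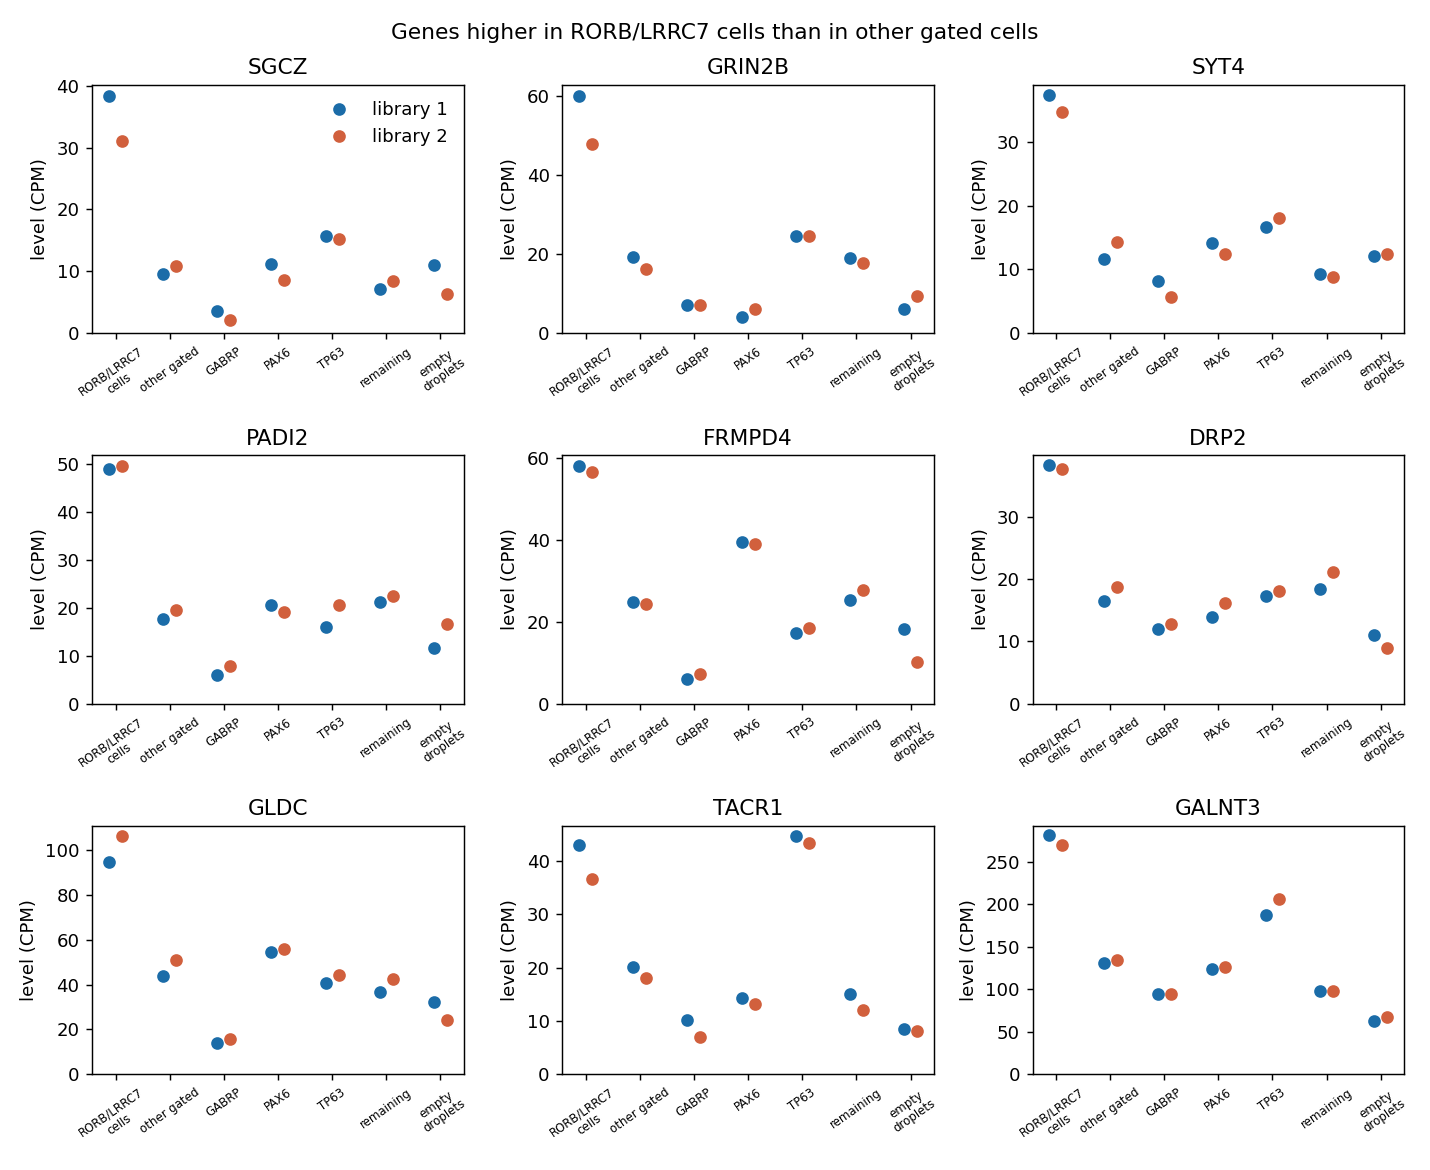
Level in CPM (y axis) of the 9 genes named as higher in RORB/LRRC7 cells than in other gated cells, in 6 sets of cells and in empty droplets (x axis), with 1 point per library. RORB/LRRC7 cells are highest for each gene except *TACR1*, where the TP63 class lies at 44.7 and 43.4 CPM.

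The 2-fold calls depended on which gene ranked the cells. Ranked by *RORB* alone, *SGCZ* still passed (log2 fold change 1.56, edgeR adjusted p = 0.00011), while the other 8 genes were between 0.32 and 0.94 on the log2 scale with edgeR adjusted p of 0.049 or less. Ranked by *LRRC7* alone, 6 of the 9 passed. Of the 53 genes, 9 were also called under the ranking by *RORB* and 31 under the ranking by *LRRC7*. RORB/LRRC7 cells can also be split by a *RORB* UMI, but the summed ranking fixes that those without one hold more *LRRC7* (452 and 521 CPM against 326 and 332 CPM), so the values that follow are a description of cells split on a gene of the rule. *GRIN2B* was at 57.9 and 47.3 CPM in cells with a *RORB* UMI and at 68.5 and 50.5 CPM in cells without one, and *DRP2* at 36.3 and 34.1 against 46.9 and 52.7 CPM. *SYT4* and *PADI2* were also lower in cells with a *RORB* UMI in both libraries. The other 5 of the 9 genes were higher with a *RORB* UMI in both libraries, *SGCZ* at 40.6 and 33.1 CPM against 29.3 and 22.2 CPM without, *FRMPD4* at 61.7 and 59.2 against 43.7 and 45.5 CPM and *TACR1* at 47.0 and 38.8 against 27.1 and 27.7 CPM, beside *GLDC* and *GALNT3*.

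*CFTR*, the chloride channel of secretory epithelia, just missed the 2-fold threshold against other gated cells, at 58.3 and 65.7 CPM against 28.3 and 32.0 CPM (log2 fold change 0.99 ± 0.13, edgeR adjusted p = 0.00037). It was above 2-fold against the PAX6 class (16.5 and 20.7 CPM; 1.74 on the log2 scale), the GABRP class (18.0 and 20.8 CPM; 1.43) and all other cells (1.24). Against the TP63 class (32.2 and 40.3 CPM) it did not reach 2-fold (0.73, edgeR adjusted p = 0.0029). In all, 11 genes passed the 2-fold test against other gated cells and against the GABRP, PAX6 and TP63 classes alike, among them *SGCZ*, *GRIN2B*, *SYT4*, *PADI2*, *DRP2*, *COL15A1*, *DBX2*, *FAM169B*, *LOC100738848* and *LOC106505915*. All but the first 5 of these were below 5 CPM in RORB/LRRC7 cells. *DBX2* and *LOC106505915* were not higher than in all other cells together (edgeR adjusted p = 0.89 and 0.54). These 4 comparisons share the sums of the RORB/LRRC7 cells and are not independent of each other.

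The genes lower in RORB/LRRC7 cells than in other gated cells were led, among those of at least 20 CPM in the higher set, by mesenchymal genes. *DCN*, the collagen-binding proteoglycan decorin, was at 4.23 and 0.687 CPM against 48.3 and 24.7 CPM (log2 fold change -3.91 ± 0.63, edgeR adjusted p = 0.0012). The fibrillar collagen chains followed, with *COL3A1* at 18.0 and 4.86 CPM against 198 and 122 CPM, *COL1A2* at 13.9 and 6.87 against 158 and 101 CPM, and *COL1A1* at 6.47 and 2.96 against 63.8 and 40.8 CPM. *TWIST1* and *ZEB2*, transcription factors of epithelial to mesenchymal transition, stood at log2 values of -3.40 and -3.38. *GATA6*, a hypoblast and mesoderm factor that the study used for hypoblast-like cells (HLCs), was at 3.93 and 2.54 CPM against 34.9 and 22.7 CPM. *DEFB1*, an epithelial defensin, *SPON1*, a secreted matrix protein, and *NKD1*, a WNT antagonist, completed the 10 named genes, at -3.43, -3.40 and -2.97. *DEFB1* differed between the libraries, at 0.349 and 5.7 CPM in RORB/LRRC7 cells against 28.8 and 33.0 CPM, which gives -6.23 in library 1 and -2.58 in library 2. Of 9 tested hypoblast genes, 4 were lower by 2-fold (*GATA6*, *GATA4*, *PDGFRA* and *NID2*), beside 3.88% of all genes. The median log2 fold change over the list was -2.09. Without the collagen-carrying cells described next, 3 of 8 were lower by 2-fold, *PDGFRA* no longer among them, with a median of -0.95. In that setting 353 of all 16997 genes were. Against the PAX6 class none of the 10 named genes was called, whereas with the library as a block *TWIST1* (-1.39) and *SPON1* (-1.08) were 2-fold lower there too (edgeR adjusted p = 0.00058 and 0.032).

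These differences moved with a small set of collagen-carrying cells. Cells with at least 5 UMIs of *COL1A1*, *COL1A2* and *COL3A1* together were 1.83% and 0.833% of RORB/LRRC7 cells and 17.3% and 12.3% of other gated cells. Of the list of 10 mesenchymal and cardiac genes, 7 were 2-fold lower (median log2 fold change -3.09), beside 3.88% of all genes. The summed level of the list was 75.0 to 132 CPM in RORB/LRRC7 cells. It was 550 to 1057 CPM in other gated cells and 445 to 702 CPM in empty droplets. With the collagen-carrying cells left out, a setting chosen after seeing the data, 353 genes were lower in place of 666, and 287 genes were common to both. *SPON1*, *ZEB2*, *GATA6* and *DEFB1* stayed called (log2 fold change -1.70, -1.90, -1.42 and -3.63), whereas *COL3A1*, which the setting itself removes, *DCN* and *NKD1* were at -0.22, -0.36 and -0.40. *TWIST1* was at -1.22 and no longer passed (edgeR adjusted p = 0.055). Of the mesenchymal and cardiac list 1 of 10 genes was lower, *MYL7*, with a median of -0.66, beside 353 of all 16997 genes. *COL1A1*, *COL1A2* and *COL3A1*, on which the setting removes cells, are on this list, so part of this change is fixed by the setting. Of the genes named as higher, *SGCZ*, *GRIN2B*, *SYT4*, *PADI2* and *FRMPD4* stayed above 2-fold, and *DRP2*, *GLDC*, *TACR1* and *GALNT3* were between 0.81 and 0.89 on the log2 scale.

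*GATA3*, the TE factor of the gate, stood at 151 and 142 CPM in RORB/LRRC7 cells and 137 and 146 CPM in other gated cells. Of 19 tested TE factors, none was 2-fold higher and 4 were 2-fold lower than in other gated cells (*CDX2*, *ELF3*, *EOMES* and *HAND1*), with a median log2 fold change of -0.27 beside a median near 0 over all genes. *CDX2*, the caudal factor of early TE, was at 0.3 and 0.2 CPM against 1.7 and 1.9 CPM. *HAND1*, a factor of trophoblast and extra-embryonic mesoderm, was at 26.8 and 17.3 CPM against 157 and 110.5 CPM. *GATA2*, *TFAP2C* and *GRHL2* were higher by small amounts (log2 fold change 0.21, 0.28 and 0.27, edgeR adjusted p = 0.009, 0.0086 and 0.0049), and at any fold 3 of the 19 were higher and 9 lower, beside 9.97% and 12.1% of all genes. The lower ones below 2-fold were *ELF5* (-0.56), *MSX2* (-0.47), *GRHL1* (-0.43), *PPARG* (-0.27) and *VGLL1* (-0.96), with edgeR adjusted p of 0.00059, 0.0049, 0.041, 0.03 and 0.015. *TFAP2A* stood at 321 and 295 CPM against 271 and 278 CPM and did not pass (edgeR adjusted p = 0.21). Without the collagen-carrying cells 5 of the 19 TE factors were 2-fold lower, *VGLL1* among them, with a median log2 fold change of -0.37.

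Of 11 keratins and trophoblast products, 4 were 2-fold lower than in other gated cells, as were 3.88% of all genes. They were *CYP11A1*, *CYP17A1* and *CYP19A1*, enzymes of steroid synthesis, and *PTGES*, a prostaglandin E synthase. At any fold 8 were lower (12.1% of all genes) and none was higher. With the library as a block 9 were lower (18.6% of all genes), *KRT7*, *KRT8*, *KRT18*, *KRT19* and *SFN* included. Without the collagen-carrying cells 5 were 2-fold lower, *SFN* among them, with a median log2 fold change of -0.41. *CYP17A1* was at 26.5 and 23.3 CPM in RORB/LRRC7 cells, 95.1 and 84.8 CPM in other gated cells and 587 and 543 CPM in the GABRP class. The simple epithelial keratins *KRT8* and *KRT18* stood at 4158 and 4001 CPM and at 3083 and 3295 CPM, below the 6727 and 5932 CPM and the 5734 and 5353 CPM of empty droplets, with log2 fold changes of -0.27 and -0.26 against other gated cells. Of 11 tested amnion-associated genes, 8 were 2-fold lower than in other gated cells (median -1.34), and 9 were lower at any fold. Of all genes, 3.88% and 12.1% were. Among the 8 were *BMP4* at 17.9 and 15.7 against 73.8 and 59.2 CPM and *TIMP1* at 71.2 and 71.0 against 163 and 153 CPM. *S100A6* was at 95.7 and 151 against 443 and 483 CPM. Without the collagen-carrying cells 6 of the 11 stayed called, *BMP4* and *TGFBI* being the ones that did not.

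Against the GABRP class, 854 genes were higher in RORB/LRRC7 cells (4.98% of those tested) and 1568 lower (9.15%), more in each direction than against any other class. Lower by 2-fold here were 10 of 19 TE factors (median log2 fold change -1.16) and 8 of 11 keratins and trophoblast products (median -1.95). So were 10 of 11 amnion-associated genes (median -2.72). This class was chosen on high *GABRP*, so genes that go with *GABRP* differ by the choice of cells. *ELF5*, a trophoblast factor, was at 59.8 and 58.4 CPM against 174 and 186 CPM, *KRT7* at 243 and 260 against 807 and 839 CPM, and *TAC3* at 2.5 and 2.6 against 363 and 311 CPM. Of 12 cranial placode genes, 7 were higher, among them *DLX5*, *DLX6*, *PITX1*, *KCNAB1* and *NRXN3*. *DLX5*, for example, stood at 112.7 and 110.45 CPM against 46.7 and 43.5 CPM. All 10 S phase genes and 11 of 12 G2/M genes were higher at any fold, none of them by 2-fold, with medians of 0.67 and 0.50 on the log2 scale. In this comparison 24% of all genes tested were higher at any fold and 26.4% lower.

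Against the PAX6 class, 183 genes were higher (1.07%) and 227 lower (1.32%). No TE factor and no keratin or trophoblast product differed by 2-fold, but at any fold 4 of 19 TE factors and 5 of 11 keratins and trophoblast products were higher and none was lower (6 and 7 higher, and 0 and 1 lower, with the library as a block). The 10 mesenchymal and cardiac genes did not pass in either direction, and with the block 2 of them, *COL1A1* and *TWIST1*, were lower. Of the 12 G2/M genes, 9 were lower at any fold (median -0.29). Of 17 BMP pathway genes, 6 were higher and 1 was lower at any fold (median 0.32). With the block 10 were higher, *ID1*, *ID2*, *MSX1* and *MSX2* included, and 2, *BMP5* and *ID3*, were lower. Of all genes tested, 5.47% were higher at any fold and 4.85% lower, and 9.44% and 8.07% with the block. Lower in RORB/LRRC7 cells were placode and forebrain genes that the PAX6 class held at high levels: *EYA2*, a transcriptional cofactor, at 26.2 and 28.1 CPM against 189 and 175 CPM, the cell adhesion protein *NRXN3* at 33.0 and 41.4 against 158 and 170 CPM, and *SIX3* at 13.6 and 13.9 against 89.9 and 88.4 CPM. *LHX2* was lower too. The PAX6 class was chosen on *PAX6*, so genes that go with *PAX6* differ by the choice of cells. *DLG2*, a postsynaptic scaffold protein, was at 70.9 and 71.3 against 272 and 350 CPM. Higher in RORB/LRRC7 cells, beside *GRIN2B* and *CFTR*, were the tight junction protein *CLDN10* (377 and 417 against 121 and 125 CPM, log2 fold change 1.70), the LIM homeodomain factor *ISL1* (1.12) and *UTF1* (1.58).

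Against the TP63 class, 166 genes were higher (0.968%) and 406 lower (2.37%). This class was chosen on *TP63*, so genes that go with *TP63* differ by the choice of cells. *EYA2* of the placode list was higher (log2 fold change 1.04), as were *OTX2*, a forebrain and placode factor (41.7 and 43.8 against 18.5 and 22.9 CPM), *SIX3*, the microtubule protein *STMN2* (138 and 133 against 67.3 and 63.5 CPM), *ZIC2*, *CLDN10* and *CYP26A1*. *CYP26A1*, which degrades retinoic acid, was at 103 and 123 CPM against 25.4 and 28.6 CPM (log2 fold change 2.02, edgeR adjusted p = 5.1e-06). Lower by 2-fold were 6 of 11 amnion-associated genes (median -1.19), 3 of 19 TE factors (*ELF3*, *ELF5* and *HAND1*) and *WNT4* and *WNT6*. *WNT6* was at 56.6 and 57.7 against 152 and 142 CPM. At any fold 8 of 10 S phase and 2 of 12 G2/M genes were higher, and 4 of 10 stress response genes were lower. Of all 17143 genes, 2862 differed at any fold in either direction. With the library as a block 9 S phase genes and 1 stress response gene were higher, and 7 stress response genes were lower. Of all genes, 12.9% were higher and 14.6% lower with the block. *TFAP2B*, a surface ectoderm factor, was the gene of that list lower than in all of the other gated, GABRP, PAX6 and TP63 sets, at 3.5 and 4.4 CPM.

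**Figure D3:**
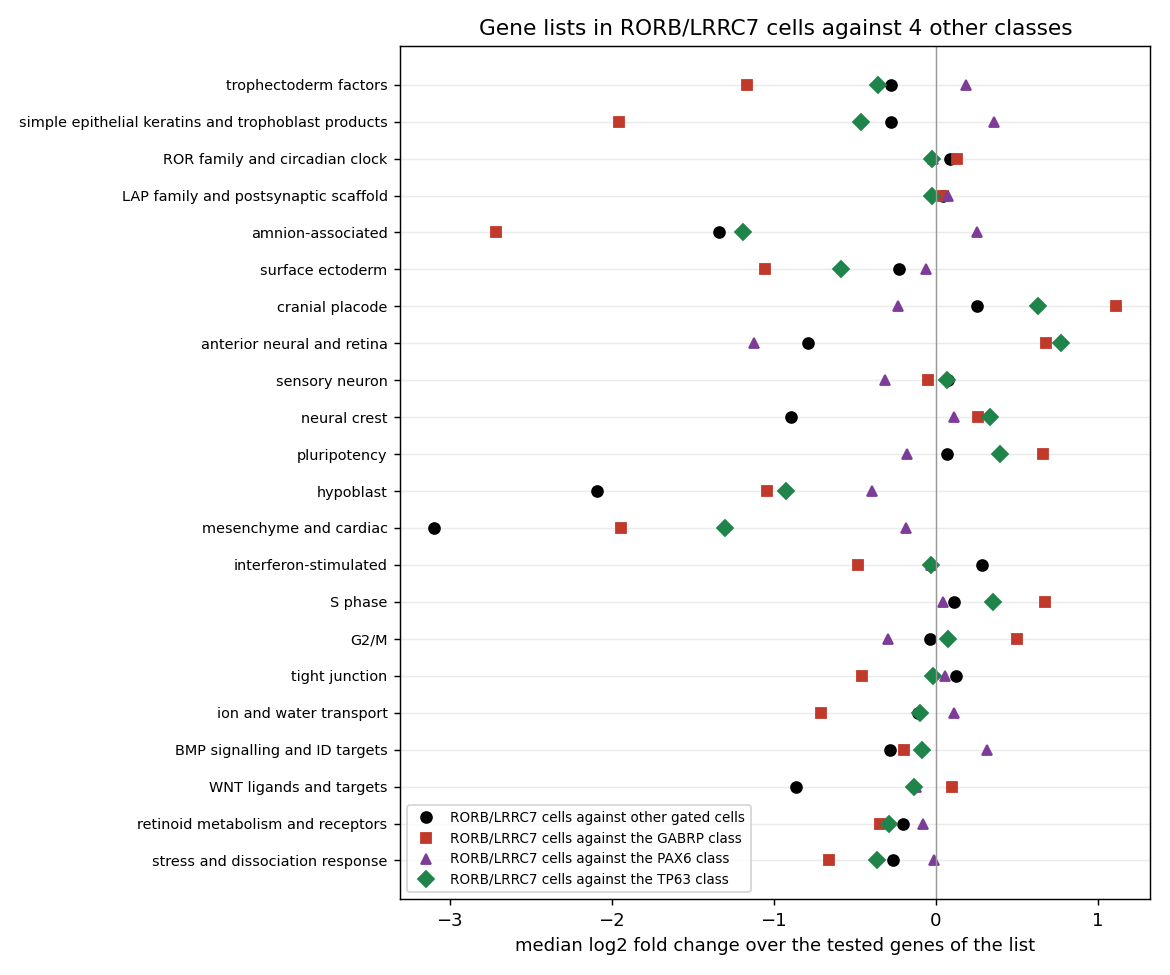
Median log2 fold change (x axis) over the tested genes of 22 gene lists (y axis) in RORB/LRRC7 cells against 4 other sets of cells, each with its own symbol; values right of 0 are higher in RORB/LRRC7 cells. The amnion-associated list lies at -2.72 against the GABRP class, -1.34 against other gated cells and 0.26 against the PAX6 class, and the mesenchymal and cardiac list at -3.09 against other gated cells.

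Against all other cells together, 63 genes were higher (0.315% of 19985 tested) and 965 lower (4.83%). This comparison also holds the gate, so genes that go with the gate genes differ in it by the choice of cells. Of the listed genes, *KCNAB1*, a potassium channel subunit of the placode list, *CFTR* and *GRIN2B* were 2-fold higher. All 10 mesenchymal and cardiac genes, 7 of 8 interferon-stimulated genes, 5 of 11 pluripotency genes and 5 of 12 anterior neural genes were lower. The pluripotency and interferon lists go with the limits on *POU5F1* and *ISG15*. Of the anterior neural genes, *SIX3* and *LHX2* were high in the PAX6 class and so go with the limit on *PAX6*.

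Genes related to *RORB* and *LRRC7* were compared with other gated cells too, where 9.97% of all genes were higher and 12.1% lower at any fold. Of 16 tested genes of the ROR family and the circadian clock, none differed by 2-fold from other gated cells (median 0.09), and *CLOCK* passed at a lower fold (log2 fold change 0.20, edgeR adjusted p = 0.02). With the library as a block *ARNTL* was higher too and *NFIL3* lower. *RORA* was at 120.5 and 104 CPM against 116 and 92.4 CPM (edgeR adjusted p = 0.80). Of 23 LAP family and postsynaptic genes, *GRIN2B* was higher by 2-fold, and *HOMER1* (0.41), *CTNND2* (0.28) and *DLG1* (0.17) passed at a lower fold. The other LAP family genes *LRRC1*, *ERBIN* and *SCRIB* had edgeR adjusted p of 0.11, 0.68 and 0.43, and with the library as a block *LRRC1* was higher, and *DLG2* and *MAGI2* of the same list were lower. *GRIN1*, the obligate partner of *GRIN2B* in NMDA receptors, was at 0.5 and 0.1 CPM, at most 0.4 CPM in the other GATA3 sets, and did not pass in any of these comparisons.

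Of 12 tested placode genes, 4 were higher than in other gated cells at any fold, among them *EYA1*, *KCNAB1* and *NRXN3*, and 1 was lower, beside 9.97% and 12.1% of all genes. None reached 2-fold, which 0.309% of all genes did in the higher direction. With the library as a block 6 were higher and 1 lower. *EYA1* stood at 93.5 and 96.8 CPM against 66.8 and 69.9 CPM. Of 10 anterior neural and retinal genes, 2 were 2-fold lower (*SIX6*, at most 0.37 CPM, and *LHX2*, at 4.0 and 3.8 against 11.2 and 11.7 CPM), none was 2-fold higher, and the median log2 fold change was -0.79. *OTX2* and *OTX1* of this list were higher by 0.64 and 0.44 on the log2 scale. The retinal and photoreceptor genes *CRX* and *RCVRN* were at or below 0.2 CPM in RORB/LRRC7 cells, and neither the sensory neuron list nor the neural crest list had a 2-fold higher gene.

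Of 18 WNT genes, 8 were 2-fold lower than in other gated cells, including the ligand *WNT4* (5.6 and 7.6 against 15.9 and 19.4 CPM) and the effector *LEF1* (17.8 and 15.7 against 46.5 and 44.1 CPM, log2 fold change -1.48, edgeR adjusted p = 2.3e-05), while *AXIN2* was at 11.8 and 11.3 against 11.7 and 10.6 CPM. *LEF1* was also lower than in the GABRP and PAX6 classes by 2-fold, and at -0.95 against the TP63 class. Of 17 BMP pathway genes 4 were 2-fold lower (*BMP2*, *BMP4*, *BMP5* and *MSX1*), and 3.88% of all genes were. At any fold 7 BMP genes were lower and 3 higher, among these the receptors *BMPR1A* and *BMPR1B* (0.26 and 0.21), and with the library as a block 11 were lower, *ID1*, *ID2*, *ID3*, *SMAD6*, *SMAD7* and *BAMBI* included, and 3 higher. Against the PAX6 class more BMP genes were higher than lower, as given above. Without the collagen-carrying cells, 3 WNT genes (*WNT4*, *WNT7A* and *LGR5*) and 1 BMP gene (*BMP5*) were 2-fold lower than in other gated cells. *LEF1* was not among them. Of 14 tight junction genes, *TJP1*, *PATJ*, *MARVELD2* and *CLDN10* were higher by 0.30 to 0.48, none by 2-fold, and *CLDN1*, *CLDN4* and *CGN* were lower. With the library as a block *CLDN3* and *OCLN* were higher too, which made 6 higher and 3 lower. No S phase, G2/M, retinoid or stress response gene differed by 2-fold from other gated cells. At any fold 2 of 10 S phase genes were higher, and 3 of 12 G2/M, 3 of 15 retinoid and 3 of 10 stress response genes were lower. *RARB* of the retinoid list was higher. Of all genes, 9.97% were higher and 12.1% lower at any fold. With the library as a block 5 S phase genes were higher, and 5 G2/M, 7 retinoid and 9 stress response genes were lower. The lower stress response genes included *FOS*, *JUN*, *ATF3* and *HSPA5*. Of the retinoid list *RARB* and *CYP26A1* were higher with the block. Of all genes, 15.7% were higher and 18.6% lower with the block. The stress response list holds genes that cell dissociation is known to raise, and their part in the other differences was not tested.

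The order of the gated cells was also followed beyond the first 600. The gated cells of each library were cut in order into groups of 600, 600, 600 and the rest (288 and 531 cells). All 9 genes named as higher were lower at each step from the first to the last group in both libraries. These genes were named for a difference between the first group and the other 3 together, so the first step is built into their choice. The later groups are ordered by the same score that chose the cells. How many of all genes follow this order is not given here, and the order is a description with no test. *GALNT3* went from 282 through 183 and 103 to 56.9 CPM in library 1 and from 270 through 189 and 123 to 65.4 CPM in library 2, and *SGCZ* from 38.3 through 16.2 and 5.05 to 2.39 CPM and from 31.0 through 19.1 and 6.96 to 3.37 CPM. *COL3A1* went the other way, from 18.0 to 510 CPM and from 4.86 to 370 CPM. The median depth fell along with the ranking, from 31284 to 22861 UMIs in library 1 and from 28895 to 20107 UMIs in library 2, and the median mitochondrial share fell from 0.716% to 0.472% and from 0.661% to 0.556%. The part of depth, mitochondrial share and collagen-carrying cells in these steps was not tested.

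**Figure D4:**
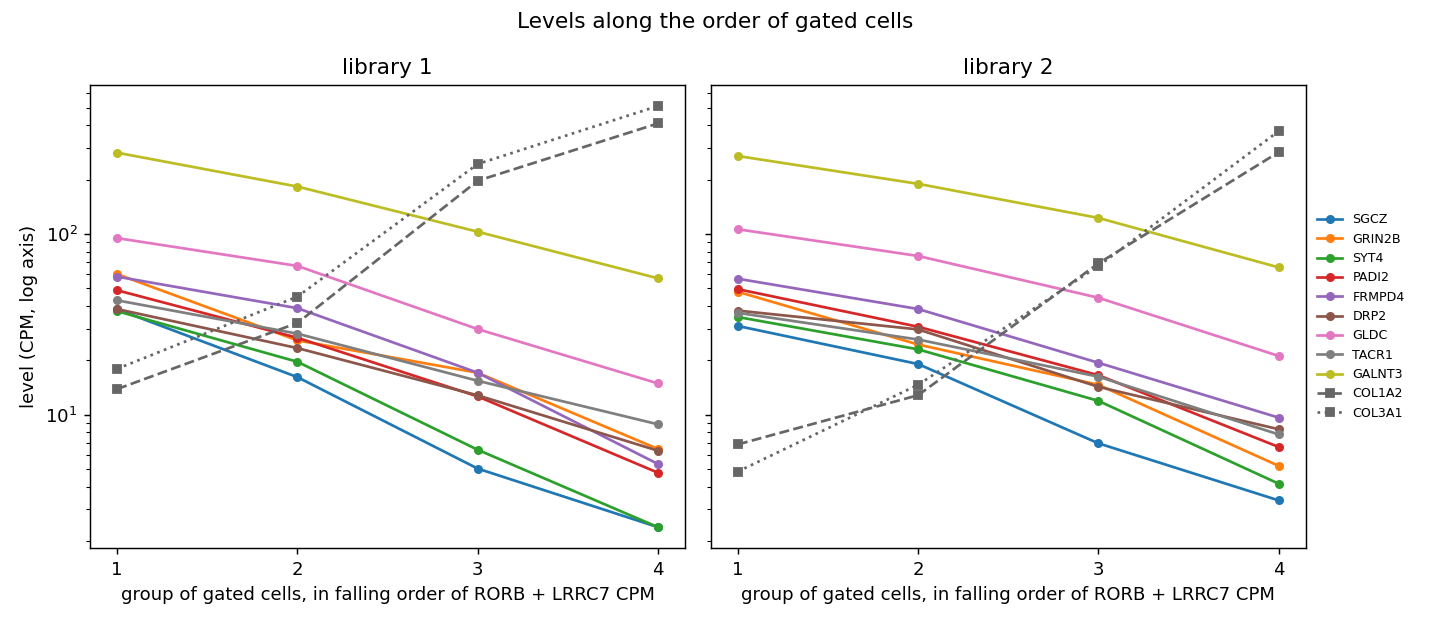
Level in CPM (y axis, log scale) in 4 groups of gated cells in falling order of summed *RORB* and *LRRC7* (x axis; group 1 holds the RORB/LRRC7 cells), for library 1 (left) and library 2 (right). Circles are the 9 genes named as higher, chosen for the first step and lower at every step, and grey squares are *COL1A2* and *COL3A1*, which are higher at every step.

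The 5 genes whose level followed that of *RORB* most closely over the 12 sums of 6 sets and 2 libraries were *STAG2* and *AGO2* (Spearman correlation 0.986) and *WAC*, *PSME4* and *TJP1* (0.979). The sums share libraries and differ in depth, and the choice of cells fixes *RORB* as highest in 2 of the 12. The list is a description of 7139 genes ranked. Their own differences were small: *STAG2*, a cohesin subunit, was at 131 and 127 CPM in RORB/LRRC7 cells, 105 and 107 CPM in other gated cells and 91.5 and 93.9 CPM in the GABRP class, a log2 fold change of 0.23 within the gate. None of the 9 genes named as higher was among them.

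RORB/LRRC7 cells were somewhat deeper than other gated cells, with a median of 31284 and 28895 against 26939 and 24190 UMIs and 6616 and 6403 against 5981 and 5688 genes. Their mitochondrial share was 0.716% and 0.661% against 0.591% and 0.588%, and ribosomal protein genes took 20.6% and 20.9% of their UMIs against 21.8% and 22.1%. The 53 higher genes spanned a median of 67.0 kb, and 39.6% of them more than 100 kb, against 27.9 kb and 18.7% over all genes tested, and 23.9 kb and 24.3% for the lower genes. The median log2 fold change against other gated cells went from -0.10 for genes up to 10 kb to 0.12 for those of 100 to 300 kb. It was 0.12 above 300 kb as well. Higher calls made up 0.122% of genes up to 10 kb and 1.35% of those above 300 kb, and lower calls 4.92% and 6.02%. The sources used here do not state whether reads in introns were counted, and the part of gene length in the results was not tested. The libraries gave like differences among genes of at least 20 CPM in the higher set. Of the 50 highest by fold in library 1, all 50 had the same direction in library 2, and 8 reached 2-fold there. Their median log2 fold change was 0.87 in the library that chose them and 0.81 in the other. Of 50 genes chosen in library 2, all 50 kept their direction in library 1 and 14 reached 2-fold. The same rule chose the cells of both libraries, and the share of all genes with 1 direction is not given here.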

How the data were processed

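The 2 blastoid libraries were made with the 10x Genomics method, and the submitters' processing notes name Cell Ranger 7.1.0 and Seurat 4.3.0. The authors deposited unfiltered UMI counts, empty droplets included, on susScr11 (the same assembly as Sscrofa11.1). Of 30029 gene names, 29795 (99.2%) matched 1 position in the RefSeq annotation. The bulk RNA-seq libraries of pESCs were not used here.

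The rule that chose the cells, the gene lists and the tests were set with earlier results of these data known, so none of the counts is independent evidence. UMIs were summed per library and set of cells, since cells are not replicates. The 12 sums entered 1 fit in edgeR 4.0.16 (R 4.3.3), with TMM factors, a filter on low counts, quasi-likelihood tests and Benjamini-Hochberg adjustment; RORB/LRRC7 cells against all other cells used a fit of 4 sums. The genes of the rule stayed in the fits, untested. Of genes called against other gated cells with a symbol and at least 20 CPM in the higher set, the 15 highest (9 passed) and the 10 lowest by fold were named, beside the genes of the lists. Of the listed genes, KRT14, KRT17, PAG2, CYP26B1, MALAT1, NEAT1 and KCNQ1OT1 were not used here, which left *MEG3* alone of 4 nuclear-retained RNAs (log2 fold change 0.12 against other gated cells). Values of some listed genes are not reported here. The scripts were tested on simulated data.

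The cells held 254038630 and 264987746 UMIs in all, with 18932208 to 138734669 UMIs in a sum. Doublets were not called, and an alternative left out cells above the 94th percentile of UMIs. Sums of 1 library belong together by construction: over all genes, the deviations of paired sums from their class means had correlations of 0.0814 to 0.445. The alternatives were another normalization (RLE), DESeq2 1.42.0, no filter, the library as a block, 300 or 1200 cells per library, ranking by 1 gene, thinning, leaving out cells by depth or mitochondrial share, each library alone, and leaving out collagen-carrying cells (chosen after seeing the data).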

Additional observations from a re-analysis of the deposited data

How the results depend on the processing

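Of 130 recomputed counts, 121 stayed within 1.5 times of the reported count. Against other gated cells, 1200 cells per library in place of 600 gave 151 higher and 1032 lower genes (53 and 666 reported), ranking by *RORB* alone 27 higher, leaving out collagen-carrying cells 353 lower, and thinning every cell to the UMI minimum of library 2 gave 408 lower. Thinning, which also lets more cells through the gate because the limits are in UMIs, kept 335 and 311 of the 600 cells per library, so it compares partly different cells. It gave 1345 genes higher than in the GABRP class, 324 higher than in the TP63 class, 140 lower than in the PAX6 class and 624 lower than in all other cells. For these thinned counts the cause was not tested. Of the 53 higher genes, 52 were also called with RLE factors, 41 by DESeq2, 49 without a filter on low counts, 37 with 300 cells and 21 after thinning. With the library as a replicate block the paired fit gave 70 higher and 792 lower genes against other gated cells, 893 and 1642 against the GABRP class, 196 and 283 against the PAX6 class, 204 and 496 against the TP63 class and 82 and 1169 against all other cells, and changed no call of the 19 named genes against other gated cells. Elsewhere it added lower calls for *DCN* and *SPON1* (GABRP class, -1.66 and -1.04), *TWIST1* and *SPON1* (PAX6 class), *COL3A1*, *COL1A2*, *COL1A1* and *GATA6* (TP63 class, -1.38, -1.24, -1.13 and -1.28) and *DEFB1* (all other cells, -2.31). At any fold the block raised the calls from 3778 to 5876, 1769 to 3001, 2862 to 4719 and 3322 to 6205 against other gated cells, the PAX6 class, the TP63 class and all other cells. Against other gated cells no named gene changed direction in any setting. *GALNT3*, on the 2-fold threshold, fell just short of it with RLE factors, DESeq2, no filter and most other choices of cells (0.81 to 1.00 on the log2 scale), *DRP2* after thinning (0.94) and *GLDC* with 300 cells (0.92). With 1 library left out no count of calls could be tested, since no residual degree of freedom remains. Of the 9 higher genes 6, and all 10 lower genes were past 2-fold in library 2 alone, and all of them in library 1. At 2 libraries the spread rests on 6 residual degrees of freedom shared by all sets, or 2 for the comparison with all other cells, and genes of a few CPM have wide intervals.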

Other observations

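*CYP26A1*, which degrades retinoic acid, was higher in RORB/LRRC7 cells than in the GABRP class (16.0 and 17.5 CPM, log2 fold change 2.51, edgeR adjusted p = 1.5e-07) and lower than in the PAX6 class (179 and 198 CPM, log2 fold change -0.73, edgeR adjusted p = 0.0039), and empty droplets held 90.9 and 103 CPM. The retinoic acid receptor *RARB* was at 71.9 and 73.1 CPM in RORB/LRRC7 cells, 45.4 and 48.8 CPM in other gated cells (log2 fold change 0.57, edgeR adjusted p = 0.00072) and 28.2 and 29.4 CPM in the GABRP class. *SLC12A2*, the sodium, potassium and chloride cotransporter, was at 70.7 and 73.9 CPM against 320 and 361 CPM in the GABRP class, so *CFTR* and *SLC12A2* differed from that class in opposite directions. Of 11 pluripotency genes, *TDGF1* was 2-fold lower than in other gated cells, at 0.05 and 0.32 against 0.81 and 1.37 CPM (log2 fold change -2.64, edgeR adjusted p = 0.019). *SALL4* was at 140 and 133 CPM against 105 and 113 CPM in other gated cells (0.28, edgeR adjusted p = 0.008), *SOX2* at 22.6 in both libraries against 19.3 and 24.9 CPM (edgeR adjusted p = 0.95), and *NANOG* at 0.2 and 0.3 CPM.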
